A study of Mus musculus with 17 samples.

Results

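The proteasome is the barrel-shaped protease that breaks down ubiquitin-tagged proteins in the cytosol and nucleus. Its core particle is built from rings of alpha and beta subunits, and the beta rings carry the catalytic sites. A regulatory particle caps the core: its base holds a ring of ATPases that unfold substrates, and its lid holds the deubiquitinase that removes the ubiquitin tag. Hematopoietic stem cells (HSCs), the cells that maintain blood formation, are known for low protein synthesis and a tightly kept protein balance, and fetal liver HSCs divide while most adult HSCs are quiescent. Described here are the 46 mouse genes whose symbols begin with Psma, Psmb, Psmc, Psmd, Psme, Psmf or Psmg, without the inducible subunits Psmb8, Psmb9 and Psmb10. They are 46 of the 18194 genes named on the arrays, each read from its brightest probe set that matched 1 gene only. All 46 were tested, and none lay at the lowest deposited value on any array.

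By role, the members were 8 alpha ring genes, 8 beta ring genes, 6 base ATPases, 3 base subunits without ATPase activity, 8 lid subunits, 7 assembly chaperones, 3 other activators and Psmf1, an inhibitor in vitro. The core particle thus had 16 genes and the regulatory particle 17. Psme2, an activator subunit, shares its probe set with Psme2b and was left out. Psmc3ip, a meiotic recombination cofactor, and Psme3ip1, a partner of the nuclear activator, entered by symbol and are no subunits. Among the subunits, Psma8 is known from testis and Psmb11 from thymus. Psmb11 gave dim values everywhere, from 21.3 to 32.7 in intensity.

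The series asked how C/EBPa, a myeloid transcription factor, acts on adult HSC quiescence. It has 17 Affymetrix arrays of sorted mouse HSCs in 5 groups by title: fetal liver at E15.5 (n = 3), control at day 7 after injection of pIpC (n = 3), C/EBPa KO at day 7 (n = 3), control at day 21 (n = 4) and C/EBPa KO at day 21 (n = 4). pIpC is a double-stranded RNA analogue that elicits interferon, and both control and KO mice received it. Adult cells were lineage-negative, Sca-1+, c-Kit+, CD150+ and CD48-, and the fetal cells were sorted as Mac-1 low in addition. The controls are given as wild type and as adult, without an exact age. The KO samples are given the genotype Pu.1 knock-in (PU.1ki/ki) in another field, so the labels conflict, and fetal liver has neither a genotype nor a pIpC day. No label names the Cre driver or the deleted allele. Nothing says that replicates came from different animals, so p-values cover the spread between these arrays, which may be technical.

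Cebpa, the gene for C/EBPa, checked the titles. Its intensities were 136.5, 141.0 and 315.3 in control and 32.0, 31.0 and 20.7 in KO at day 7. At day 21 they were 275.3, 115.3, 115.4 and 532.5 in control and 26.7, 29.9, 25 and 39.8 in KO. At both days every KO array was below every control array, the direction the titles name. The labels do not say whether the probe set lies within deleted sequence. Of 8 HSC markers 6 were measured, and all 6 were above the floor on every array. Control day 7 replicate 1 read low for the members, and values without it are given where they matter. Fewer cells of a type and less RNA per cell cannot be told apart in such bulk samples.

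Upstream sequences were read for the members because a shared control of subunit genes is known: the factors encoded by Nfe2l1 and Nfe2l2 bind the antioxidant response element with small MAF partners, and many subunit promoters also hold a CCAAT box. RefSeq start-site windows (assembly GRCm38.p6, 250 bases before to 50 bases after the start) existed for 38 of the 46 members, 41 windows in all. The element's core, written TGACNNNGC and searched on both strands, was found in 6 of 41 member windows (14.6%) and in 12.4% of all 32851 windows. CCAAT, on both strands, was found in 15 of 41 (36.6%) against 37.4% of all windows. The members with the first motif were Psmb5, Psmb6, Psmc6, Psmd9, Psmd12 and Psme4, and none of these had CCAAT in its window. The 250 bases before the start are shown for 4 of them, to show where the motif lies: catalytic Psmb5 and Psmb6, Psmc6, which is among the called genes below, and the chaperone Psmd9. Each is printed 5′ to 3′ on the gene's own strand, and capitals mark the motif.

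Psmb5: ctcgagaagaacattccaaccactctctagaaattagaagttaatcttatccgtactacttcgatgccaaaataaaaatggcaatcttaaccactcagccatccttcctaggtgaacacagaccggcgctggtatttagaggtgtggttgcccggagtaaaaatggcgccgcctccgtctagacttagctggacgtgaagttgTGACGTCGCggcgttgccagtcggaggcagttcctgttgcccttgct
Psmb6: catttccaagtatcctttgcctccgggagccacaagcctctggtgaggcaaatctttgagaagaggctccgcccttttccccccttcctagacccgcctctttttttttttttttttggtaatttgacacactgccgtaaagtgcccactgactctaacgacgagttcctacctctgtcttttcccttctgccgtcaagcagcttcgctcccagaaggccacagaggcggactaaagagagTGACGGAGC
Psmc6: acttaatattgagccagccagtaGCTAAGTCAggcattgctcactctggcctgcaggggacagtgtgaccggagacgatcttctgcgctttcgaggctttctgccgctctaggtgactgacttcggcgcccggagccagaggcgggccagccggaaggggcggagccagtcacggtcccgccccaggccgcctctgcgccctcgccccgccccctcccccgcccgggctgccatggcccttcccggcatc
Psmd9: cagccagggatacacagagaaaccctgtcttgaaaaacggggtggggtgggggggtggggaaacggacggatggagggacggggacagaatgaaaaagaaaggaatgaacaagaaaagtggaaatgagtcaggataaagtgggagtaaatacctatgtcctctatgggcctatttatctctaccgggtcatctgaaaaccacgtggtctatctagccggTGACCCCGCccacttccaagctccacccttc

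The Psmb5 stretch is chr14:54617996-54618245 on the minus strand, and its motif begins 47 bases before the start. For Psmb6, on the plus strand at chr11:70525107-70525356, the motif is the last 9 bases before the start used for the window. The annotated gene begins earlier, at 70525324, so this motif lies inside the annotated gene. The Psmc6 stretch, chr14:45329574-45329823 on the plus strand, holds the motif on the opposite strand, 227 bases before the start. In Psmd9, chr5:123227940-123228189 on the plus strand, it begins 31 bases before the start. A match of these letters is a description of the window and not a measured binding site. Psmb2, Psmb7, Psmc3, Psmd7, Psmg2, Psma8, Psmb1 and Psmd3 were not analysed here for motifs.

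The members sat lowest in the adult controls. By group mean, 24 of 46 members were lowest in control day 7 (52.2%, against 21.9% of all 16785 genes tested) and 16 in control day 21. Either control was lowest for 87.0% of members and for 43.6% of all genes. The highest mean lay in fetal liver for 25 members (54.3%, against 27.7% of all genes) and in KO day 7 for 10. These are counts of group means with no test of the order. They include control day 7 replicate 1, which read low for the members, and were not repeated without it.

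**Figure D1:**
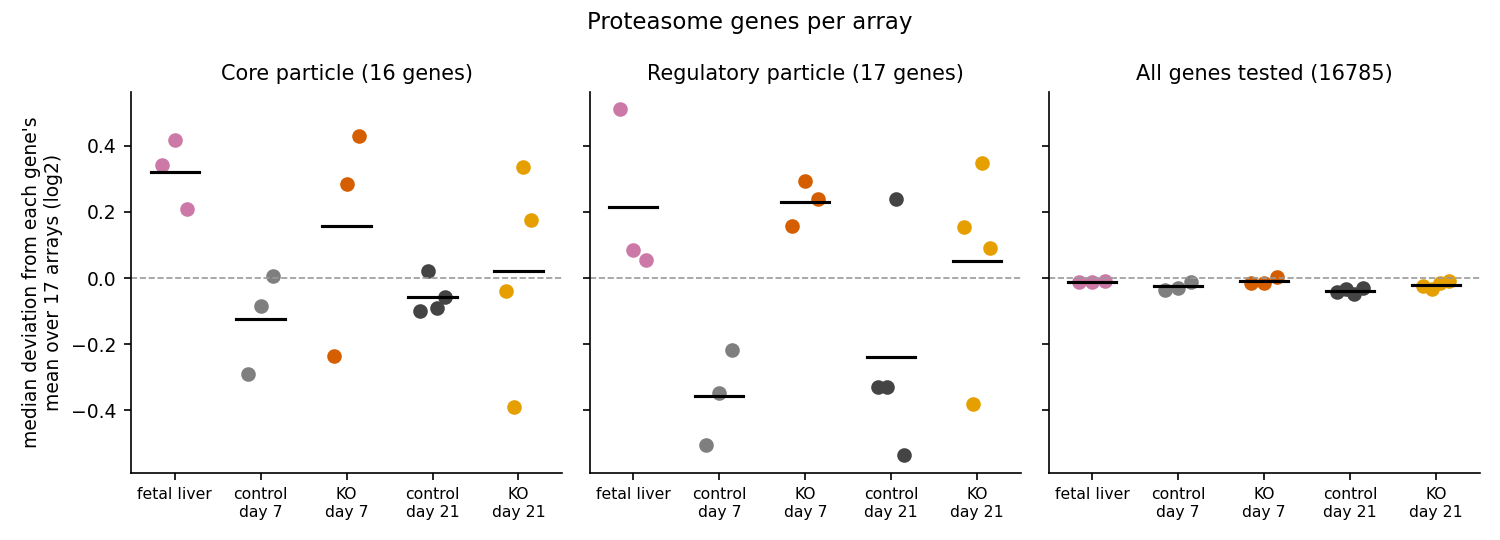
Each point is 1 array: the median, over the 16 core particle genes, the 17 regulatory particle genes or all 16785 genes tested, of the log2 deviation from the gene's mean over the 17 arrays. Horizontal bars are group means. Fetal arrays lie above all control arrays for the core, KO day 7 arrays lie above the control day 7 arrays for the regulatory particle, and all genes together stay near 0.

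For each array, the median deviation of the members from their own means over 17 arrays was taken on the log2 scale. It was 0.43, 0.17 and 0.21 in fetal liver and −0.51, −0.18 and −0.02 in control day 7. In KO day 7 it was −0.04, 0.26 and 0.32. In control day 21 it was −0.19, −0.03, 0.07 and −0.29, and in KO day 21 −0.04, −0.21, 0.31 and 0.13. The 3 fetal arrays were above all 7 control arrays, while the KO arrays overlapped the controls at both days. Replicates differed by a pooled SD of 0.20. The same median over all genes stayed between −0.05 and 0.00.

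The order of group means was nearly the same in core and regulatory particle, with both control groups lowest. The highest mean was that of fetal liver for the core (0.32, KO day 7 0.16). For the regulatory particle KO day 7 (0.23) and fetal liver (0.22) were close. For the core, the fetal arrays ran from 0.21 to 0.42 and the 7 control arrays from −0.29 to 0.02, without overlap, whereas KO day 7 ran from −0.24 to 0.43. For the regulatory particle, KO day 7 ran from 0.16 to 0.29 and control day 7 from −0.51 to −0.22, without overlap. Fetal liver (0.05 to 0.51) overlapped control day 21 (−0.54 to 0.24) through replicate 3 only, at 0.24. Within KO day 21, replicate 2 was low for both, at −0.39 and −0.38, and the other 3 lay higher. No test of the difference between the particles was made.

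Fetal liver was compared with the mean of both adult control groups, the comparison of fetal with adult HSCs. Of the members, 38 of 46 were higher in fetal liver (52.0% of all genes were), with a median log2 difference of 0.50 against 0.02 for all genes. Limma called 2 members, Psmb7 and Psmc6, both higher (3.65% of all genes were called and 1.88% called higher, at an adjusted p under 0.05 over 16785 genes). At an unadjusted p under 0.05, 14 members were higher and 1 lower, against 10% and 6.77% of all genes. The core had 14 of 16 genes higher (median 0.45) and the regulatory particle 15 of 17 (median 0.49). All 6 base ATPase genes were higher, with a median of 0.86, and the 7 chaperones had a median of 0.85. The 3 other activators had a median of −0.05. Among genes brighter than the median gene, a group that holds 45 of the members, the median was 0.07 and 54.4% were higher.

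Psmb7 encodes the catalytic beta subunit with trypsin-like activity. Its intensities were 1239, 2652 and 1508 in fetal liver, 172.4, 287.9 and 974.8 in control day 7 and 260.5, 566.0, 325.9 and 599.1 in control day 21. In the KO groups they were 794.1, 1378 and 1038 at day 7 and 1182, 405.8, 1086 and 805.6 at day 21. All fetal arrays lay above all control arrays. Psmb7 rose by 2.14 on the log2 scale in fetal liver (SE 0.50, 95% interval 1.07 to 3.21, 4.40-fold, limma adjusted p = 0.0304). The array has 1 usable probe set for it. The call was lost without fetal replicate 2 (limma adjusted p = 0.144) or 3 (0.0734), without control day 7 replicate 1 (0.0517) or 2 (0.0617), with only the arrays compared (0.131), without eBayes (0.0503) and with the ratio of 3-prime to 5-prime control probe sets as a covariate (0.0660). That ratio, a measure of RNA quality, ran from 0.02 to 0.52 on the log2 scale in fetal liver and from −0.40 to 0.34 in controls.

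Psmc6 encodes a base ATPase. It read 1020, 1169 and 1434 in fetal liver, 388.6, 373.2 and 509.2 in control day 7 and 543.7, 1076, 581.9 and 739.5 in control day 21. The fetal arrays overlapped the controls through 1 day 21 array only. Psmc6 rose by 1.13 (SE 0.25, 95% interval 0.60 to 1.67, 2.19-fold, limma adjusted p = 0.0222). Its 2 dimmer probe sets gave 0.76 and −0.03, and the mean of all its probe sets lost the call (limma adjusted p = 0.456). Leaving out fetal replicate 2 (0.0713) or 3 (0.0976) lost it too, as did only the arrays compared (0.0656) and the 3-prime to 5-prime covariate (0.0508). Without control day 7 replicate 1 and control day 21 replicate 3 together, chosen after seeing the data, both genes lost the call (0.0587 for Psmc6 and 0.0686 for Psmb7). With that covariate the members called were Psma5 and Psmd6 instead.

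The other catalytic subunits had smaller differences. Psmb5, the chymotrypsin-like subunit, read 416.2, 361.4 and 166.9 in fetal liver and from 95.4 to 294.7, with a median of 220.3, in the 7 controls. The groups overlapped, with a log2 difference of 0.61 (SE 0.38, 95% interval −0.20 to 1.43). Psmb6, the caspase-like subunit, differed by 0.19 (SE 0.39, 95% interval −0.64 to 1.03). Psmb3, a beta subunit without catalytic activity, read 2092, 2024 and 2748 in fetal liver and from 318.0 to 1887 in controls. Its groups did not overlap, at 1.25 (SE 0.46, limma adjusted p = 0.162). In all, 4 of 46 members had fetal arrays above every control array (3.37% of all genes did): Psmb7, Psmb3, Psma5 and Psma6. In 0 members were all fetal arrays below (2.68% of all genes).

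The alpha ring forms the gate of the core. Psma5 read 1783, 1710 and 1430 in fetal liver, 479.5, 701.7 and 1173 in control day 7 and 1232, 895.6, 1342 and 886.1 in control day 21. Its difference was 0.88 (SE 0.24, limma adjusted p = 0.0649), short of the threshold, and its second probe set gave 1.02. Psma6 had the same size, 0.88 (SE 0.28, limma adjusted p = 0.114), and its next brightest probe set gave 0.80 (SE 0.20). In a fit over all single-gene probe sets that second one passed the threshold (limma adjusted p = 0.0471) and the brightest did not (0.118). Psma8, the testis form, differed by −0.39 and was the lowest of the ring.

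In the regulatory particle, Psmd6, a lid scaffold subunit, read 540.4, 653.2 and 786.9 in fetal liver against 110.6 to 622.8 in the 7 controls. A single control array, day 21 replicate 3, reached into the fetal range. The difference was 1.42 (SE 0.39, limma adjusted p = 0.0649), and its other probe set gave 0.69. Psmd3, another lid gene, was at 0.49. Psmc5, a base ATPase, had 0.96 (SE 0.29, limma adjusted p = 0.0865), and Psmd1, the large base scaffold subunit, 1.02 (SE 0.37). Psmd4, a ubiquitin receptor, had 0.15. None of these 5 passed the threshold.

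Assembly chaperones and activators differed among themselves. Psmd9, a chaperone of the base, had 1.23 (SE 0.42, limma adjusted p = 0.139), and Psmd5, another, 0.85 (SE 0.33). Dimmer probe sets of Psmd9 gave 0.13 (SE 0.25) and 0.21 (SE 0.69). Psme4, which encodes a large nuclear activator, had 1.14 (SE 0.44, limma adjusted p = 0.187), with fetal values of 205.6, 626.7 and 1478 that ran from within the control range (142.8 to 566.2) to above it. Psme1, a subunit of the interferon-inducible activator, was on the other side at −0.62 (SE 0.24, limma adjusted p = 0.196). Psmf1 had −0.16, Psmc3ip 0.61 and Psme3ip1 0.11.

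**Figure D2:**
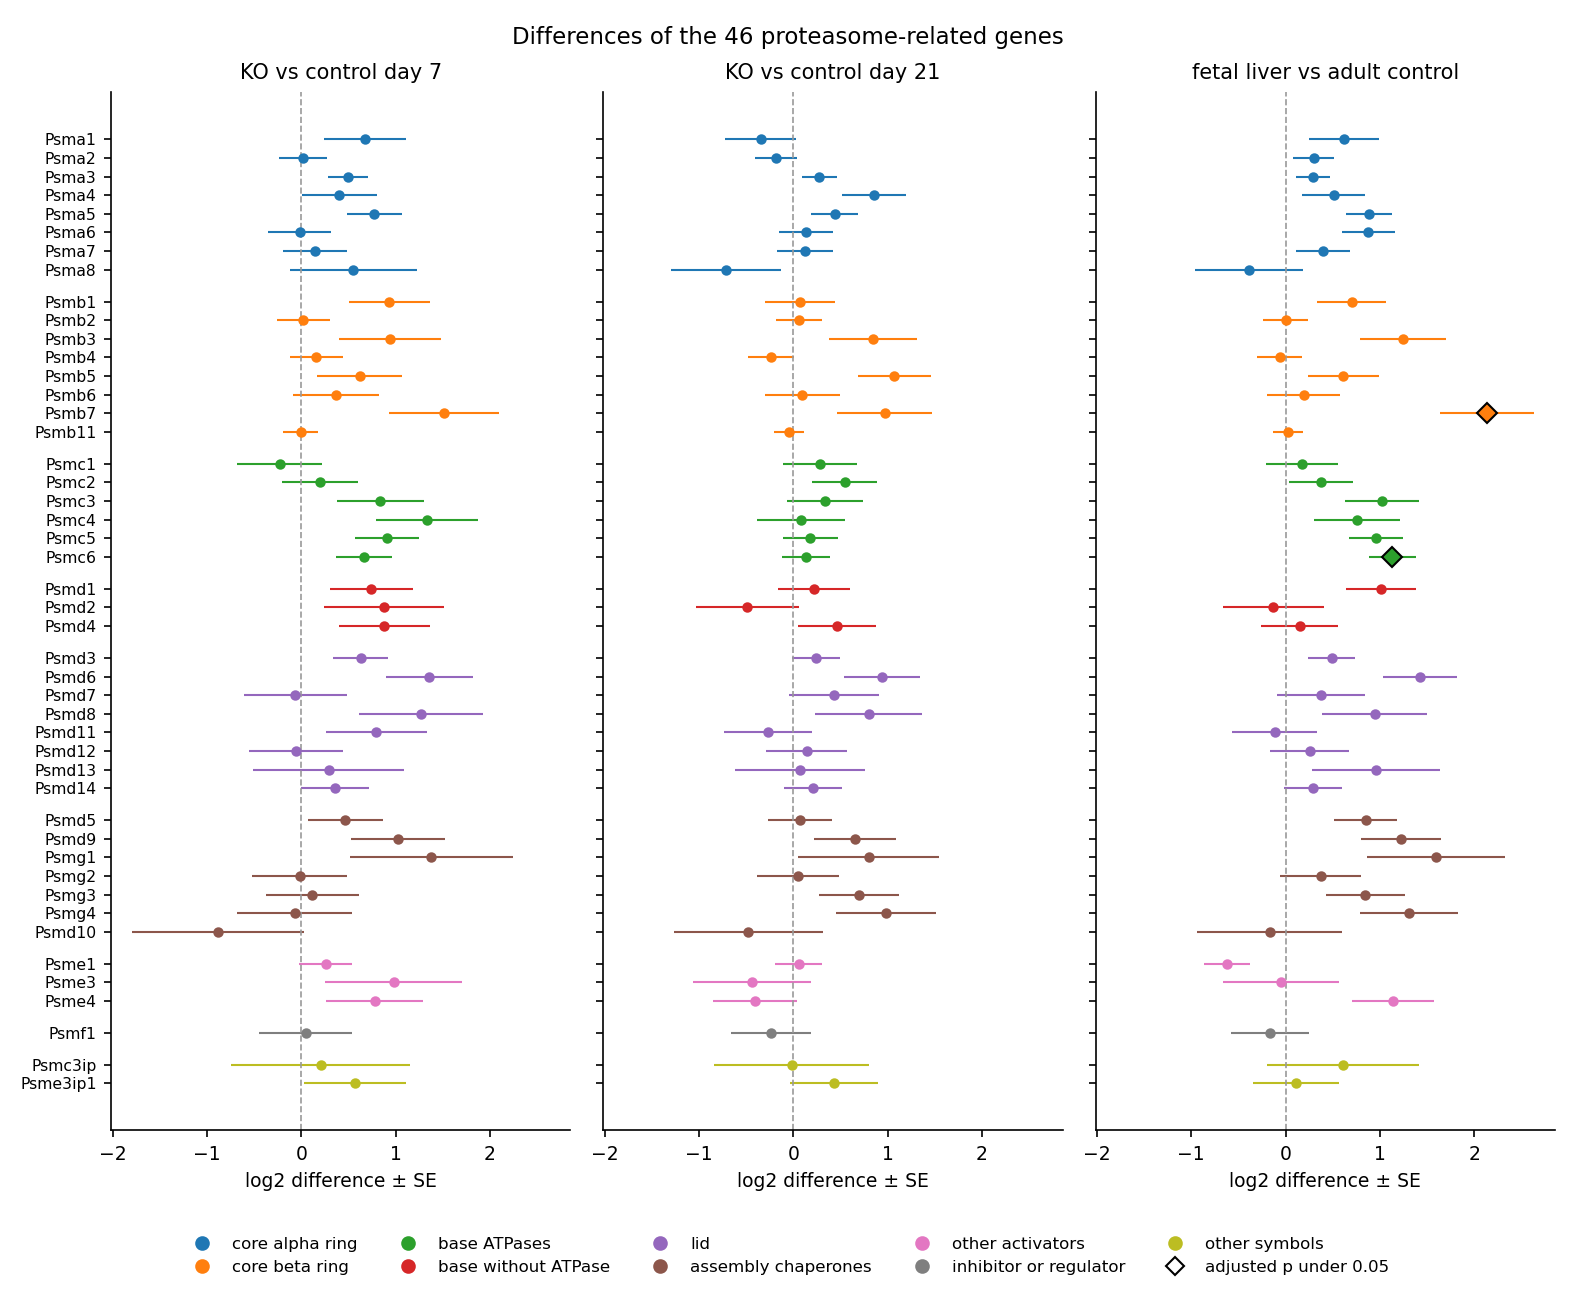
Log2 difference of each member with its SE (bars), coloured by role, for KO against control at day 7 and day 21 and for fetal liver against the mean of both control groups. All 3 panels share 1 axis. Diamonds mark limma adjusted p under 0.05, which only Psmb7 and Psmc6 in fetal liver reached.

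Markers of several other cell types moved with the fetal comparison, though not those of all types. Over the 7 control arrays, the summed intensity of 6 hepatocyte markers ran from 327.1 to 1036 and was 709.9, 11010 and 7291 in fetal liver. The 5 endothelial markers ran from 214.8 to 575.1 in controls and were at 1155, 6348 and 10490 in fetal liver. Macrophage markers (7 genes) ran from 201.3 to 534.8 in controls and from 1532 to 2597 in fetal liver, with Adgre1 at the floor on all control arrays, and erythroid markers (5 genes) from 326.5 to 2056 and from 3893 to 7075. Neutrophil markers (6 genes) ran from 1134 to 2549 and from 2075 to 16440. Lymphoid markers (4 genes) ran from 112.3 to 152.1 in controls and from 104.4 to 120.4 in fetal liver. Markers of progenitors outside the gate (2 genes) ran from 63.0 to 864.4 in controls and from 346.9 to 663.2 in fetal liver. Fetal replicate 1, with the highest member median, 0.43, had the lowest hepatocyte and endothelial sums and the highest neutrophil and macrophage sums of the fetal arrays. The 6 HSC markers summed to 3952 to 6443 in fetal liver and to 4736 to 7254 in controls, and 0 of them were called. In fetal liver 4 of 5 endothelial and 4 of 5 erythroid markers were called higher (1.88% of all genes were). So were 2 of 6 hepatocyte, 2 of 7 macrophage and 2 of 6 neutrophil markers. The part of these cells in the members' differences was not tested, and stage, tissue and pIpC cannot be told apart here.

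C/EBPa KO was compared with control at day 7, the earlier time after pIpC. In KO, 38 of 46 members were higher, against 50.1% of all genes, and the median log2 difference was 0.52, against 0.00 for all genes. Limma called 0 members (0% of all genes were called), and the smallest adjusted p of a member was 0.590. At an unadjusted p under 0.05, 9 members were higher and 0 lower, against 3.74% and 2.98% of all genes. In 11 of 46 members every KO array was above every control array (7.48% of all genes), and in 0 every KO array was below (6.39%). The core had 14 of 16 genes higher (median 0.45), the regulatory particle 14 of 17 (median 0.74) and the base ATPases 5 of 6 (median 0.75). The 7 chaperones had a median of 0.12 and the lid 0.49. In genes brighter than the median gene the median was 0.09.

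Psmb7 read 794.1, 1378 and 1038 in KO and 172.4, 287.9 and 974.8 in control, which overlap through 1 control array. Its difference was 1.52 (SE 0.59, limma adjusted p = 0.665). Psmb5 read 326.1, 383.1 and 443.2 in KO and 234.5, 220.3 and 294.7 in control, without overlap, at 0.62 (SE 0.45, 95% interval −0.35 to 1.59, limma adjusted p = 0.882). Psmb6 was at 0.37 (SE 0.46) and Psmb1, a beta subunit without catalytic activity, at 0.93 (SE 0.43, no overlap). Of the alpha ring, Psma5 had 0.78 (SE 0.29) and Psma3 0.49 (SE 0.21, no overlap), where a dimmer probe set gave −0.88 (SE 0.85). None of these 6 genes passed the threshold.

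Psmd6 had the smallest p among the members. Its values were 303.5, 502.0 and 747.8 in KO against 110.6, 322.2 and 189.2 in control, overlapping through 1 pair of arrays, and its difference was 1.36 (SE 0.46, limma adjusted p = 0.590). Its other, similarly bright probe set gave 0.28 (SE 0.55). The base ATPase Psmc4 read 1094, 470.0 and 942.3 in KO against 347.3, 211.7 and 410.0 in control, without overlap, with 1.34 (SE 0.54, limma adjusted p = 0.685), and another probe set gave 0.73. Psmc5 had 0.91 (SE 0.34, no overlap) and Psmd3 0.63 (SE 0.29). The base subunits Psmd4 and Psmd1 had 0.88 (SE 0.48, no overlap) and 0.74 (SE 0.44).

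Among the rest at day 7, Psmd9 had 1.02 (SE 0.50, no overlap) and Psmg1, a core assembly chaperone, 1.38 (SE 0.86). Dimmer probe sets of Psmd9 gave 0.20 (SE 0.30) and −0.81 (SE 0.81). Psme4 was at 0.78 (SE 0.51, no overlap) and Psme3, the nuclear interferon-independent activator, at 0.98 (SE 0.73). Control day 7 replicate 1 decided part of these values: it read 16.9 for Psmg1 against 423.8 and 219.4, and 297.6 for Psme3 against 3581 and 2996. Without it Psmg1 was at −0.01, Psme3 at −0.17 and Psmb6 at −0.09, 33 of 46 members were higher and the median of the members was 0.38. Psmf1 had 0.05, Psme3ip1 0.57 and Psmc3ip 0.21. Summed markers of progenitors outside the gate (Cd48 and Flt3) ran from 213.2 to 717.2 in KO day 7 and from 179.2 to 259.3 in control day 7, and erythroid markers from 706.1 to 1986 and from 372.5 to 1184. Neutrophil markers ran from 1033 to 1677 in KO and from 1194 to 2130 in control, with 5 of 6 genes lower in KO. The 6 HSC markers summed to 4183 to 4743 in KO and to 5976 to 7254 in control, without overlap. Their part in the result was not tested.

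**Figure D3:**
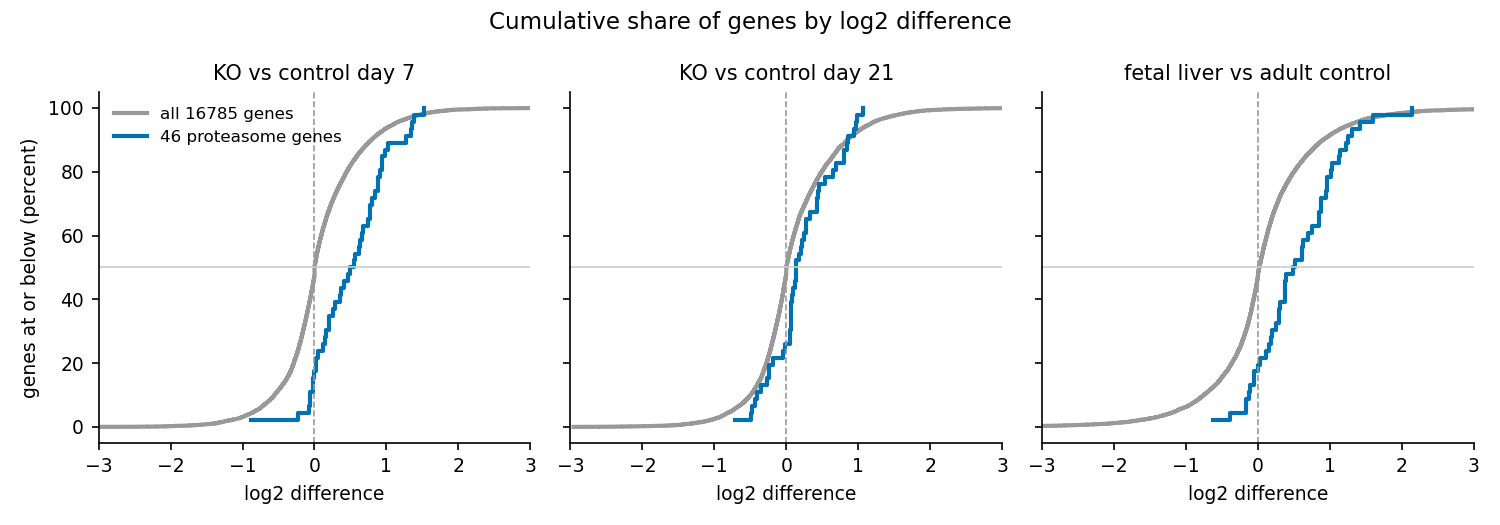
Cumulative share of genes (percent) at or below each log2 difference, for the 46 members (blue) and all 16785 genes tested (grey), in 3 comparisons. The members' curve lies to the right at day 7 (median 0.52) and in fetal liver (median 0.50), and closer to all genes at day 21 (median 0.14).

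At day 21 the shift was smaller. In KO 34 of 46 members were higher, against 50.3% of all genes, with a median of 0.14. That is near the median of the genes brighter than the median gene, 0.15, of which 59.5% were higher. Limma called 0 members (0.0179% of all genes, 3 genes, were called), and the smallest adjusted p was 0.366. At an unadjusted p under 0.05, 3 members were higher and 0 lower, against 6.12% and 3.95% of all genes. In 2 members, Psma4 and Psmg4, the groups did not overlap, KO being higher (3.14% of all genes), and in 0 was KO lower throughout (2.35%). The core had 11 of 16 higher (median 0.11) and the regulatory particle 15 of 17 (median 0.22). With arrays centred on their medians, all genes moved by −0.20 and the members' median turned to −0.06, with 21 of 46 higher. Centring moves every gene of a comparison by the same amount. The members' median relative to all genes, 0.14, therefore cannot change with it. With each array's percentage of floor values as a covariate the members' median was 0.03, with 25 of 46 higher. That percentage ran from 22.4% to 25.2% in control and from 21.7% to 23.3% in KO. Leaving out 1 array gave 0.08 (without KO replicate 3) to 0.31 (without KO replicate 2). The log2 ratio of 3-prime to 5-prime control probe sets ran from −0.40 to 0.20 in control and from 0.19 to 0.30 in KO, and with it as a covariate the median was 0.14. Control day 21 replicate 3 had the lowest ratio and the highest percentage of floor values, and without it the median was 0.14.

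Psmb5 read 401.9, 150.5, 350.2 and 435.0 in KO and 95.4, 263.1, 116.3 and 162.7 in control at day 21. KO replicate 2 lay within the control range, and the other 3 KO arrays lay above it. The difference was 1.07 (SE 0.39, 95% interval 0.23 to 1.91, 2.10-fold, limma adjusted p = 0.366). Psma4, an alpha ring gene, read 761.0, 755.4, 1431 and 685.5 in KO and 636.6, 566.7, 273.9 and 532.8 in control, at 0.86 (SE 0.34, limma adjusted p = 0.430). Psmd6 read 549.4, 619.6, 650.4 and 583.0 in KO against 300, 326.8, 622.8 and 156.5 in control, at 0.94 (SE 0.40, limma adjusted p = 0.466). KO arrays were tight for this gene and control arrays wide. The other, similarly bright probe set of Psmd6 gave 1.49 (SE 0.48).

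Psmb7 had 0.97 (SE 0.51, 95% interval −0.12 to 2.06) at day 21, Psmb6 0.10 (SE 0.40) and Psma5 0.44 (SE 0.25). In the regulatory particle, Psmc2 and Psmc3, both base ATPases, had 0.54 (SE 0.35) and 0.33 (SE 0.40), Psmd4 had 0.46 (SE 0.42) and Psmd8, a lid subunit, 0.80. A similarly bright probe set of Psmc2 gave 0.14 (SE 0.31) and a dim one 0.26 (SE 0.25). Dimmer probe sets of Psmd4 gave 0.91 (SE 0.33) and −0.06 (SE 0.23). Psmd2, a base scaffold subunit, was at −0.49 (SE 0.55). The core chaperones Psmg4 and Psmg3 had 0.98 (SE 0.53, no overlap) and 0.70 (SE 0.43). Psme4 and Psme3 were lower in KO, at −0.41 and −0.44, and Psmf1 was at −0.24. For these 3 genes the sign turned with the probe set: the next brightest gave 0.54 (SE 0.40) for Psme3 and 3.0 (SE 0.87) for Psmf1, and dimmer ones of Psme4 gave from −1.50 to 1.68. Psme3ip1 had 0.43 and Psmc3ip −0.02. None passed the threshold. Summed HSC markers ran from 3028 to 5465 in KO and from 4736 to 6912 in control at day 21, and erythroid markers from 877.7 to 3797 and from 326.5 to 2056. Neutrophil markers ran from 902.7 to 1516 in KO and from 1134 to 2549 in control, with 6 of 6 genes lower in KO. Progenitor markers (Cd48 and Flt3) ran from 247.0 to 397.0 in KO and from 63.0 to 864.4 in control. The part of these markers in the members' values was not tested.

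**Figure D4:**
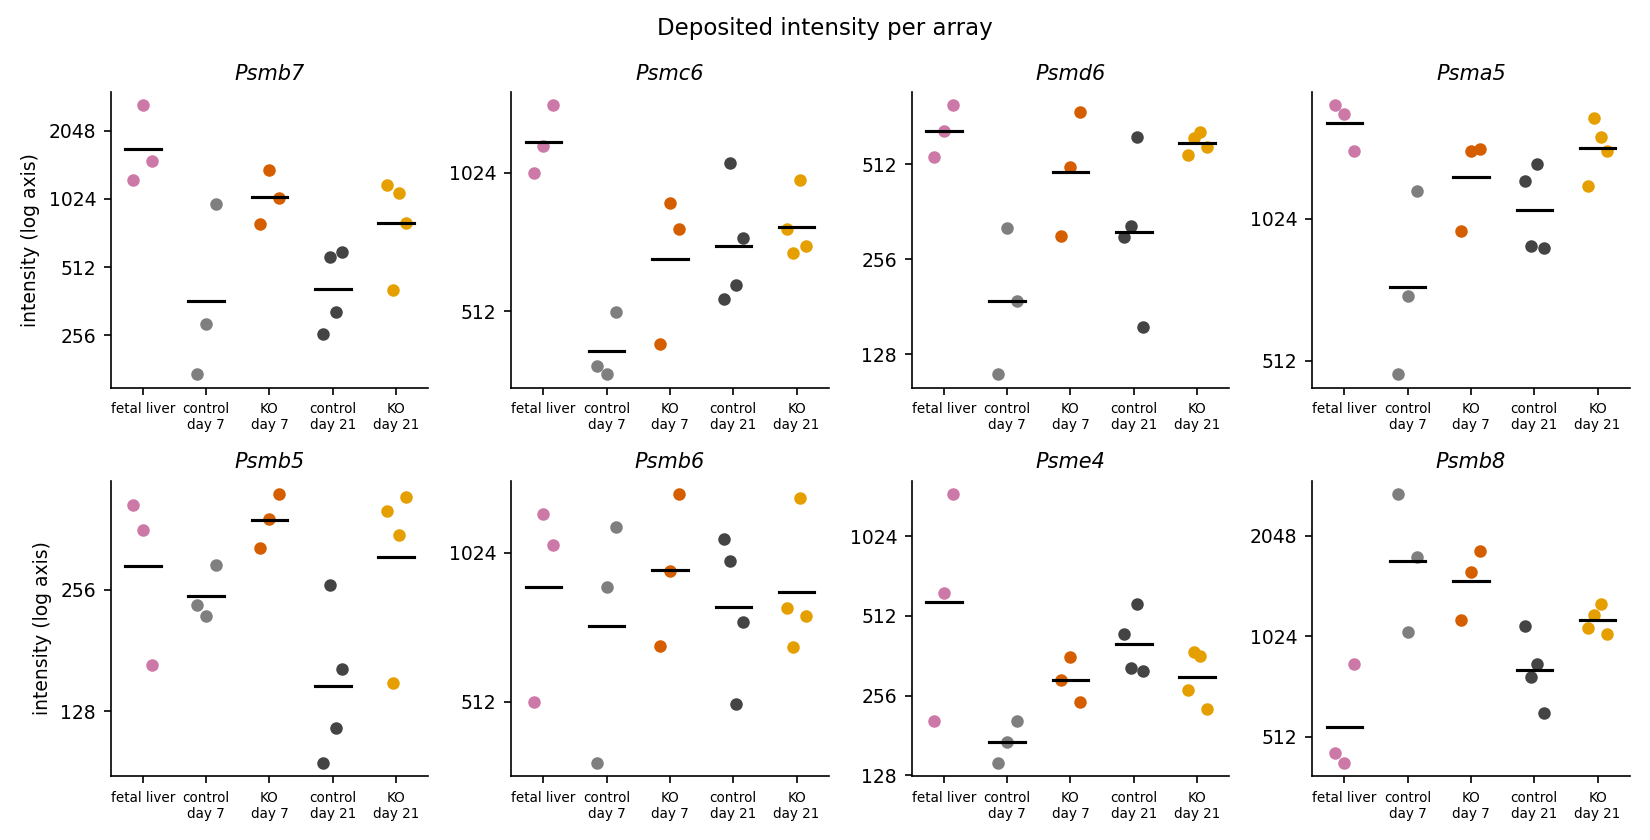
Deposited intensity (log axis) of 7 members and of the inducible subunit Psmb8 on each of the 17 arrays; bars are group means of log2 values. Psmb7 and Psma5 have all fetal arrays above all control arrays, Psmc6 and Psmd6 overlap through 1 control array, and Psmb8 is low in fetal liver.

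The comparisons at both KO days share no array. Of the members, 28 of 46 (60.9%) were higher in KO at both, and 2 were lower at both. Of all genes 30.1% were higher at both, and of the genes brighter than the median gene 37.7%. With 38 of 46 members higher at day 7 and 34 at day 21, many are higher at both without any link between the days. Whether 28 exceeds that number was not tested. The day 21 count fell to 21 with arrays centred on their medians and to 25 with the percentage of floor values as a covariate. The difference of the KO effects, day 21 minus day 7, had a median of −0.28 over members and 0.00 over all genes, with 12 of 46 members above 0 (49.8% of all genes). Without control day 7 replicate 1 the members' median was −0.12, with 16 of 46 above 0, and without control day 21 replicate 3 in addition −0.10, with 17 of 46. With the mean of all probe sets of a gene it was −0.15. Limma called 0 members in it (0% of all genes), and 0 reached an unadjusted p under 0.05 (2.63% of all genes did as higher and 1.88% as lower), so a difference between the days was not detectable for any member. The smallest p had Psma1, an alpha ring gene, at −1.02 (SE 0.58), Psmc4 at −1.25 (SE 0.71) and Psme4 at −1.18 (SE 0.68), all with a limma adjusted p of 1.0. Their 95% intervals, −2.26 to 0.22 for Psma1, −2.78 to 0.28 for Psmc4 and −2.65 to 0.28 for Psme4, include large differences.

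Control arrays of day 21 and day 7 were compared as the baseline of both KO comparisons. At day 21, 28 of 46 members were higher (48.2% of all genes), with a median of 0.15. Limma called 0 members (0.0298% of all genes, 5 genes, were called, all lower). At an unadjusted p under 0.05, 3 members were higher and 0 lower, against 3.28% and 4.77% of all genes. The groups did not overlap in 2 members that were higher (2.75% of all genes) and in 0 that were lower (3.38%). Psmc6 had 0.76 (SE 0.27, limma adjusted p = 0.516, no overlap), Psme4 1.22 (SE 0.48, limma adjusted p = 0.542, no overlap) and Psma1 1.01 (SE 0.41, limma adjusted p = 0.555). Psme4 read 142.8, 171.3 and 205.4 at day 7 and 437.7, 325.1, 566.2 and 316.1 at day 21. Psmb5 was lower at day 21, at −0.75 (SE 0.42), Psmb7 was at 0.18 and Psmb6 at 0.13. Without control day 7 replicate 1 the members' median was 0.03, and likewise without control day 21 replicate 2. Without control day 7 replicate 1 and control day 21 replicate 3 together it turned to −0.02, with 22 of 46 higher. Of the alternatives with all arrays, centring on array medians gave 0.32, as all genes moved by 0.16, and the percentage of floor values as a covariate gave 0.31.

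The inducible catalytic subunits Psmb8, Psmb9 and Psmb10, which replace those of Psmb5, Psmb6 and Psmb7 after interferon, form a list of 3. In fetal liver all 3 were lower than in adult controls and 0 were called (3.65% of all genes were). Psmb8 read 459.1, 429.0 and 843.5 in fetal liver, 2728, 1057 and 1769 in control day 7 and 1099, 771.9, 845.0 and 605.0 in control day 21. Its fetal value was −1.10 (SE 0.29, limma adjusted p = 0.0521) with overlap, and that of Psmb9 was −0.99 (SE 0.26, limma adjusted p = 0.0556) without overlap. Psmb8 was also lower in control day 21 than in control day 7, at −1.08 (SE 0.32, limma adjusted p = 0.405). At day 7, KO minus control was highest for Psmb10, at 0.34, and at day 21 Psmb8 had 0.50 and Psmb9 −0.62.

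Of 17 associated factors 14 were measured. In fetal liver 8 were higher (52.0% of all genes were) and 6 lower, with a median of 0.06. Zfand5, which encodes a proteasome-binding zinc finger protein, fell by 0.65 on the log2 scale (SE 0.15, limma adjusted p = 0.0238). It read 4129, 3523 and 3991 in fetal liver and from 5102 to 7349 in the controls, without overlap, and was the 1 gene called (lower calls were 1.77% of all genes). It lost the call without fetal replicate 2 (limma adjusted p = 0.107) or 3 (0.0593), with only the arrays compared (0.0607), with brighter genes only (0.104) and with the mean of its probe sets (0.0811). Sem1, a small lid subunit outside the symbol rule, had 0.62 in fetal liver, 0.87 in KO at day 7 and 0.63 in KO at day 21. Ecpas, a proteasome adaptor, had 1.06 in KO at day 7 without overlap. At both KO days 8 of 14 were higher (50.1% of all genes at day 7 and 50.3% at day 21). At neither day was any called (0% and 0.0179% of all genes were).

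Of 15 genes for the transcriptional control of the proteasome 14 were measured. In fetal liver 2 were higher (52.0% of all genes were) and 12 lower, with a median of −0.59. Of these 14, 2 were called, both lower (1.77% of all genes): Mafg and Mafk, which encode small MAF partners. Mafg read 58.7, 128.7 and 165.0 in fetal liver and from 203.5 to 555.5 in the controls, without overlap, and fell by 1.72 (SE 0.38, limma adjusted p = 0.0220). Mafk fell by 1.48 (SE 0.32, limma adjusted p = 0.0215), with overlap. Both lost the call without fetal replicate 2 (limma adjusted p = 0.0525 for Mafg and 0.119 for Mafk) and with only the arrays compared (0.103 and 0.150), Mafg also without fetal replicate 1 (0.102) and with the mean of its probe sets (0.186), and Mafk without fetal replicate 3 (0.0798) and without control day 7 replicate 1 and control day 21 replicate 3 together (0.0573). Nfe2l1 was at −0.19. At day 21, Nfe2l2 read 434.9, 376.2, 426.1 and 381.8 in KO and 46.9, 269.1, 237.8 and 105.1 in control, without overlap, at 1.60 (SE 0.49, limma adjusted p = 0.290). At day 7, 5 of 14 were higher in KO (50.1% of all genes) and 0 were called (0% of all genes). At day 21, 10 of 14 were higher (50.3% of all genes) and 0 were called (0.0179% of all genes). Of the ubiquitin genes and their activating enzymes, Uba6 was measured, at 1.42 in fetal liver (limma adjusted p = 0.223).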

How the data were processed

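RNA of 17 sorted HSC samples was amplified (Ovation Pico WTA System V2, per the labels' protocols) and hybridised to Affymetrix arrays. The authors deposited intensities on a linear scale for 45101 probe sets; RMA is named in the submitters' processing notes without role or version, and the sources used here do not state the scaling. Each array had a floor of 16, with 20.4% to 25.2% of probe sets there and array medians of 39.4 to 53.1. The number of arrays limits the precision.

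Log2 was taken without a pseudocount. Of 34958 probe sets with 1 gene, the brightest per gene was kept, which gave 18194 genes, 16785 above the floor. Limma 3.58.1 in R 4.3.3 fitted 1 mean per group on all 17 arrays (lmFit, eBayes, residual df 12), with Benjamini-Hochberg adjustment over 16785 genes in each of 5 comparisons, and was tested on simulated data. Intensities of different genes are not comparable.

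Members and lists were chosen with earlier results of these data known. For both KO comparisons and fetal liver, Psmb5, Psmb6, Psmb7, every called member and the 2 smallest p per role were named. For the comparison of the controls and the difference of KO effects, only some of the genes this rule picks were named. Of other lists, up to 3 called genes or the smallest p were named, though not in every comparison. Others were chosen after their values were seen. Alternatives covered scaling, filter, probe set, covariates and left-out arrays. Some entries of the other lists were not analysed here.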

Additional observations from a re-analysis of the deposited data

Results flagged for a closer look

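In groups of 4 arrays, single arrays stood far from the other 3 for 4 members. Of 94 groups examined 5 were of this kind, and chance gives about 1 in 20. In control day 21, replicate 2 read 664.0 for Psma1, with the others at 367.4 to 398.1, and 333.8 for Psmd11, a lid gene, with the others at 1147 to 1424. In KO day 21, replicate 2 read 406.5 for Psmd11, with the others at 933.3 to 1008, and 198.4 for Psmd2, with the others at 767.2 to 966.9. In KO day 21, replicate 3 read 1431 for Psma4, with the others at 685.5 to 761.0.

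For Psma1 and Psme4, every KO array was above the mean of the control arrays at day 7 and below it at day 21, both on the log2 scale. The difference of the KO effects was −1.02 for Psma1 and −1.18 for Psme4 on the log2 scale, and neither passed limma's test.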

How the results depend on the processing

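The count of members called in fetal liver against adult control, 2 as reported, was 0 with only the arrays compared, 1 with the mean of all probe sets of a gene, 1 without eBayes and 1 without control day 7 replicate 1 and control day 21 replicate 3 together, an alternative chosen after seeing the data. Leaving out 1 array gave 0 (without fetal replicate 3) to 4 (without control day 7 replicate 3) members. In the other 4 comparisons 0 members were called in every setting run. The medians of the members left out 1 array at a time ranged from 0.38 to 0.66 for KO at day 7, 0.08 to 0.31 at day 21, 0.38 to 0.55 in fetal liver, 0.03 to 0.27 for control day 21 against day 7 and −0.41 to −0.12 for the difference of KO effects. The mean of all probe sets of a gene gave medians below these ranges, 0.36 for KO at day 7 and 0.33 in fetal liver. The percentage of floor values as a covariate gave 0.35 for KO at day 7. With the replicate number as a block, 3 members were called in fetal liver (Psmd6 in addition) and 0 elsewhere. Deviations of same-numbered arrays correlated from −0.04 to 0.08 and those of other pairs between groups from −0.09 to 0.06. Whether the numbers pair the samples cannot be told from such correlations, and the labels do not say. Of 95 values of members that the naming rule picks, 32 changed sign in at least 1 setting, and 0 of these were called. Signal over background limits Psmb11, which was near the floor on every array.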
